A study of Mus musculus with 2 samples.

Results

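Neutrophils with intermediate granule transcripts are blood neutrophils in which the mRNAs of 3 secondary granule proteins, Ltf, Camp and Ngp, together made up at least 0.5% and under 3% of the cell's unique molecular identifiers (UMIs). They were chosen by measured values. Of the 27933 deposited cell barcodes, 26438 passed the barcode filter (200 genes or more, mitochondrial UMIs at 20% or less). Of these, 19566 met the neutrophil limits: S100a8 and S100a9 together at 3% or more of UMIs, at least 1 UMI of Csf3r, Cxcr2 or Ly6g, and at most 5 UMIs of the monocyte genes Ccr2, F13a1, Vcan and Fn1. The granule window held 1410 of these 19566 cells, 51 of them young and 1359 old.

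The data are 2 single-cell RNA libraries of mouse blood made, by their labels, with the BD Rhapsody microwell system, 1 from young mice aged 2 months and 1 from old mice aged 24 months, both labelled male. Red cells were lysed and live cells positive for CD45, CD11b and Ly6G, a surface protein of mouse neutrophils, were sorted. Strain, genotype and the number of animals in a library are not given in the labels, and no treatment is named. With 1 library per age there is no replicate, so no test was made and no p-value is given. All values describe these libraries. Levels are in CPM, the UMIs of a gene summed over the cells of a class and scaled to a common total. Ranges in parentheses are 95% intervals (exact Poisson for levels, exact Clopper-Pearson for shares), and both cover counting error only.

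Neutrophils mature in the bone marrow and fill their granules in sequence. Azurophil granule proteins such as myeloperoxidase are made first, then the specific granule proteins lactoferrin (Ltf), cathelicidin (Camp) and neutrophilic granule protein (Ngp), then the gelatinase granule proteins. Transcription of each wave declines as the next begins, and mature blood neutrophils keep the proteins but little of the mRNA. The transcription factor C/EBP-epsilon is required for the specific granule genes.

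The genes of the rule lie together on chromosome 9 of GRCm38: Camp at 109847379-109849617 (minus strand), Ngp at 110419747-110423012 (plus strand) and Ltf at 111019271-111042767 (plus strand), all protein-coding. The 4 other marker genes lie elsewhere. Cd177 is at 24743983-24760311 and Ifitm6 at 141015699-141017924 on chromosome 7, both on the minus strand. Itgb2l is at 96422288-96443619 on chromosome 16, minus strand, and Ly6g at 75155240-75159126 on chromosome 15, plus strand. The 250 bases before the RefSeq start (GRCm38.p6) are shown for 2 rule genes and for Lcn2 and Itgb2l. These 2 genes had higher pooled levels with each granule class in both libraries. Motifs of C/EBP and ETS family factors were marked because these are known regulators of granule genes. Capitals mark matches on either strand to the C/EBP core TTGCNNAA or the ETS core GAGGAAG, or to their reverse complements. The 2 motifs share no overlapping match here.
Ngp, chr9:110419558-110419807, plus strand: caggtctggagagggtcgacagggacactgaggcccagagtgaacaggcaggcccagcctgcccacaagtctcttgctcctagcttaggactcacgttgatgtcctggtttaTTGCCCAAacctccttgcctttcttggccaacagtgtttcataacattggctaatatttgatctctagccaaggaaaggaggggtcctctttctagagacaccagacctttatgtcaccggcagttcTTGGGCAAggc
Ltf, chr9:111019042-111019291, plus strand: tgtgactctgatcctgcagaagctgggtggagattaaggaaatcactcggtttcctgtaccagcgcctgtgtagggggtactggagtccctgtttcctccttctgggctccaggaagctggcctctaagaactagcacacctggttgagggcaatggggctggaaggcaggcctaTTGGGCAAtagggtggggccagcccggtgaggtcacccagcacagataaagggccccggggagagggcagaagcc
Lcn2, chr2:32387740-32387989, minus strand: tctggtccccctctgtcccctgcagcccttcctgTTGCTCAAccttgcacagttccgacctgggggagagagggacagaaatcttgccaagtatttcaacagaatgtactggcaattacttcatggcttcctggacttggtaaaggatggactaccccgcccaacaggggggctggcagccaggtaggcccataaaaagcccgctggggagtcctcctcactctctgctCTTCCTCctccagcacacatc
Itgb2l, chr16:96443615-96443864, minus strand: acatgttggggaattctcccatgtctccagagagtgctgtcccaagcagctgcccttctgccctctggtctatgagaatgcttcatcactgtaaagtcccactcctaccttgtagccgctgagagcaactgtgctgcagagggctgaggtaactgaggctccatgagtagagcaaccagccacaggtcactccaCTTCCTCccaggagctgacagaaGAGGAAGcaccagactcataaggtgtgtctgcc
The Ngp window held 2 C/EBP core matches, beginning 138 and 11 bases before the start, and the Ltf window 1, at 75 bases. Lcn2 held 1 of each motif and Itgb2l 2 ETS core matches, at 56 and 33 bases. Of the windows not shown, Mmp8 and Ly6g (at the more upstream of its RefSeq starts) also held 1 of each. Neither of these genes rose with each granule class in both libraries. The windows of Camp, Cd177, Ifitm6, Prok2 and Chil3 held neither motif. Of 32851 promoters of the same length, 9.56% held the C/EBP core and 10.6% the ETS core. A match describes the letters and is not evidence of binding.

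All 10 neutrophil markers stood at 20 CPM or more in the intermediate cells of both libraries, but 5 of them (S100a8, S100a9, Csf3r, Cxcr2 and Ly6g) were part of the rule and so fixed by it. Of the others, Retnlg stood at 29054 and 23852 CPM and Il1r2 at 344 and 271 CPM, young and old. Of 8 azurophil and progenitor genes, Mpo, Elane, Ctsg, Prtn3, Ms4a3 and Cd34 had 0 UMIs in the 51 young cells, which held 529020 UMIs. The others, Kit and Prss57, were detected, and the list summed to 7.56 CPM. In the old cells, with 15676591 UMIs, the list summed to 27.0 CPM. Prtn3 stood at 11.04 CPM there, with a UMI in 11.2% of cells, Elane at 1.21 and Mpo at 0.447. The proliferation gene Mki67 had a UMI in 3 of 51 young and 37 of 1359 old cells. Intermediate cells thus held specific granule mRNA with little or no mRNA of these early genes. Marker lists of other cell types summed to 56.7 CPM (young) and 70.0 CPM (old) for B cells, 18.9 and 19.7 CPM for T cells, 125 and 293 CPM for platelets and 1013 and 11032 CPM for erythroid cells. The classical monocyte list summed to 999.96 CPM and 1082 CPM, of which Ly6c2 gave 885 and 903 CPM. Ccr2, which the rule limits, had 0 UMIs young and 22.8 CPM old.

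Intermediate cells made up 0.540% (0.403 to 0.710) of young neutrophils, 51 of 9439, and 13.4% (12.8 to 14.1) of old neutrophils, 1359 of 10127. Cells under 0.1% (granule-low) numbered 9250 young and 5289 old. Cells from 0.1% to under 0.5% (trace) numbered 91 and 2487, and cells at 3% or more (granule-high) 47 and 992. Among the cells at 0.5% or more, the intermediate share was 52.0% (41.7 to 62.2) young and 57.8% (55.8 to 59.8) old. The old library thus held a larger share of every class above 0.1%, while the split between intermediate and granule-high was close in both. No cell was in the window among 147 young B cells, which allows a share of up to 2.04%, or among 120 old B cells, which allows up to 2.5%. These B cells were taken without UMIs of Csf3r or Cxcr2. That leaves out B cell barcodes carrying such neutrophil RNA, so the count cannot tell how often mixed barcodes enter the window. Granule mRNA in cells that should lack it was higher in the old library: Ltf, Camp and Ngp made up 0.0467% of all UMIs of old B cells and 0.000919% of those of young B cells. The trace class, from 0.1%, lies nearer that level than the window does. Depth differed (a median of 4246 UMIs per barcode young, 7265.5 old). With each cell thinned to 1000 UMIs, and shallower cells left out, the shares were 0.522% and 13.9%, within the intervals above. The class is a percent of UMIs, which thinning does not shift on average. The part of depth in the difference between the libraries was therefore not tested. The gate on Ly6G protein can also set these shares.

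**Figure D1:**
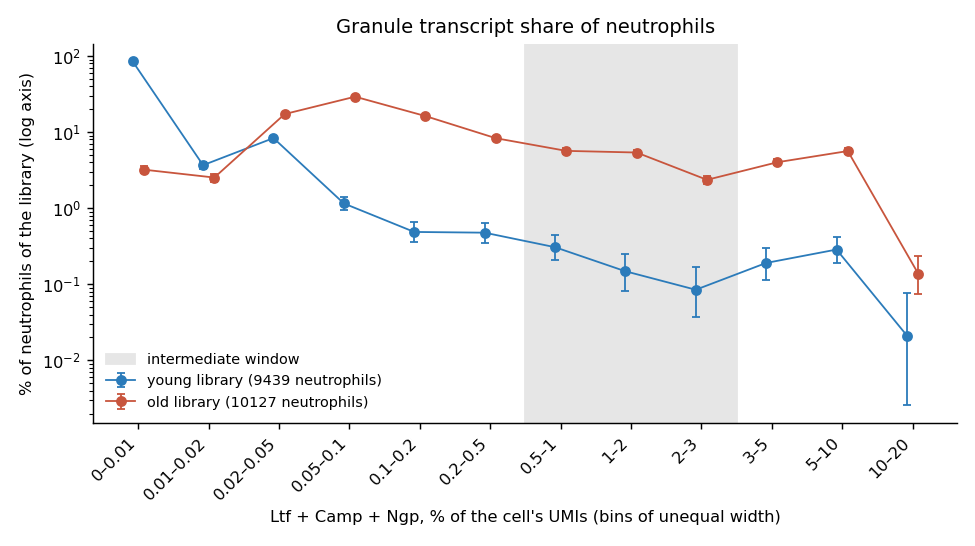
Share of the neutrophils of each library (y axis, percent, log scale) by the percent of the cell's UMIs from Ltf, Camp and Ngp (x axis, bins of unequal width). Points are shares with 95% Clopper-Pearson intervals and the grey band is the intermediate window: 29, 14 and 8 young cells and 574, 546 and 239 old cells lie in its 3 bins, with no gap at either edge.

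The window cut a continuous range. In the young library 4 cells lay from 0.4% to 0.5% and 9 from 0.5% to 0.6%, and in the old library 181 and 152. At the upper edge, 4 young cells lay from 2.5% to 3% and 3 from 3% to 3.5%, and 105 and 129 old cells. Cd177 stood at 805 CPM just under and 838 CPM just over the lower edge in the old library, and at 1218 and 1189 CPM around the upper edge. Intermediate cells held a median of 9698 UMIs young and 11621 old. In both libraries this lay above the trace cells (6707 and 7723) and below the granule-high cells (11963 and 16878.5), so class and depth moved together. The part of depth in the class differences was not tested.

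The old members held a set of cells with haemoglobin transcripts. Erythroid markers (a fixed list led by the haemoglobin genes) made up 0.5% or more of the UMIs in 311 of 1359 old and in 0 of 51 young members. The young count allows a share of up to 5.88%. Of these 311, 254 lay from 1% to under 6%, with a median of 3.23% and a median depth of 3595 UMIs, and 32 lay at 6% or more, with a median of 28.3% and 15367 UMIs. Limits of 1% and 6% were set after seeing the data. The other 1048 old members had a median of 0.127% and 12581.5 UMIs. S100a8 and S100a9 made up a median of 13.3% of UMIs in the 311 cells and 35.2% in the 1048. This median was 13.2% in the 254 cells and 23.3% in the 32 cells. The pooled 311 cells also had more Ccr2 (134 against 10.03 CPM) and Prtn3 (36.5 against 8.11 CPM). For comparison, S100a8 and S100a9 made up 20.3% and granule genes 1.08% of UMIs over all old barcodes pooled, and 19.4% and 1.13% in the 311 cells pooled. Erythroid markers stood at 49041 CPM over all old barcodes and at 95566 CPM in the 311 cells. Pooling gives deeper cells more weight, so the pooled values describe neither the 254 nor the 32 cells alone. The part of red cell RNA in the results on old cells was not tested, and the counts of called genes are also given without such cells. Counting markers of B, T, NK, platelet or erythroid cells together, 319 old members (23.5%) passed 0.5%, against 13.8% of old trace and 2.72% of old granule-high cells. In the young library 0 of 51 members passed it, but 18 of 91 trace cells (19.8%) did, and 1 of 47 granule-high cells. Without such cells the intermediate share was 0.574% (0.427 to 0.753) young and 11.6% (10.99 to 12.3) old. All deposited barcodes of the 2 libraries shared 53 barcode sequences, carried by 1 young and 7 old members.

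**Figure D2:**
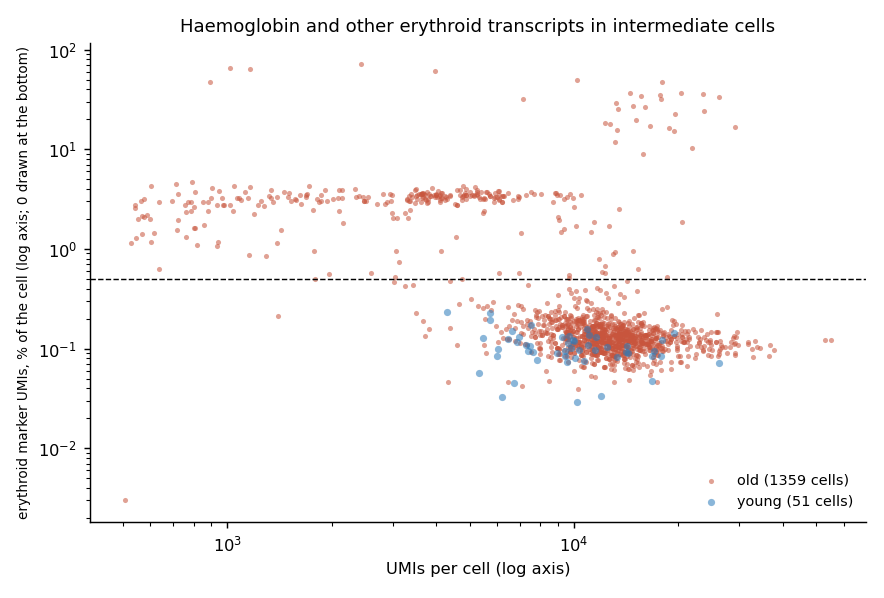
Erythroid marker UMIs as percent of the cell (y axis, log scale) against UMIs per cell (x axis, log scale) for the 51 young and 1359 old intermediate cells, 1 point per cell. The dashed line is at 0.5%: 311 old and 0 young cells lie at or above it, most of them in a band near 3% that runs across depths.

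Ngp held most of the granule UMIs of intermediate cells, and its share differed by class. Among the UMIs of Ltf, Camp and Ngp in young cells, Ngp made up 84.1% in trace, 61.6% in intermediate and 49.6% in granule-high cells. In old cells these shares were 78.0%, 69.2% and 50.3%. In old B cells, which should not express these genes, Ngp made up 54.4%. Camp, the cathelicidin precursor, took 28.2% of the 3 genes in young and 16.5% in old intermediate cells, and Ltf 10.2% and 14.3%. The order Ngp, Camp, Ltf held in both libraries.

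Lcn2, Cd177, Itgb2l and Ifitm6 were higher in intermediate than in trace cells, and Ly6g was not. Lcn2 (lipocalin-2, an iron-siderophore binding granule protein) stood at 8491 CPM in young and 10866 CPM in old intermediate cells. The trace cells had 4803 and 6428 CPM and the granule-high cells 14892 and 17601 CPM, so intermediate cells lay between them in both libraries. Cd177, a glycosylphosphatidylinositol-anchored neutrophil surface protein stored in specific granules, stood at 837 (761 to 919) CPM young and 1008 (992 to 1023) CPM old. Its trace levels were 538 and 522 CPM and its granule-high levels 1254 and 1242 CPM. Itgb2l, an integrin beta subunit related to CD18, stood at 268 (226 to 316) and 195 (188 to 202) CPM, against 130.2 and 71.3 CPM in trace cells. Old B cells had 22.6 CPM of Cd177 and 4.53 CPM of Itgb2l, so the levels in intermediate cells were above those in cells that should lack these genes. After thinning each cell to 1000 UMIs, Cd177 had a UMI in 64.7% (50.1 to 77.6) of young and 63.1% (60.5 to 65.7) of old intermediate cells. No young and 49 old intermediate cells were too shallow to thin. The thinned B cell shares were 0 of 146 young, which allows up to 2.05%, and 1 of 119 old (0.840%). Unthinned, 100% of young and 92.6% of old intermediate cells had a Cd177 UMI, at median depths of 9698 and 11621 UMIs against 5760 and 6485 in B cells.

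Ifitm6, a myeloid member of the interferon-induced transmembrane family, followed the classes but at different levels in the 2 libraries. Its levels from granule-low to granule-high were 169, 1146, 1826 and 3234 CPM young and 1366, 3051, 5423 and 6266 CPM old. Old B cells had 219.7 CPM and young B cells 4.597 CPM. Ly6g, the gene of the sorting antigen and part of the rule, stood at 499 (441 to 563) CPM in young and 1056 (1040 to 1072) CPM in old intermediate cells. In the old library it was nearly level over the trace, intermediate and granule-high classes, at 1118, 1056 and 1087 CPM. In the young library granule-high cells stood at 1042 CPM, above the 490.5 and 499 CPM of the classes beneath.

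**Figure D3:**
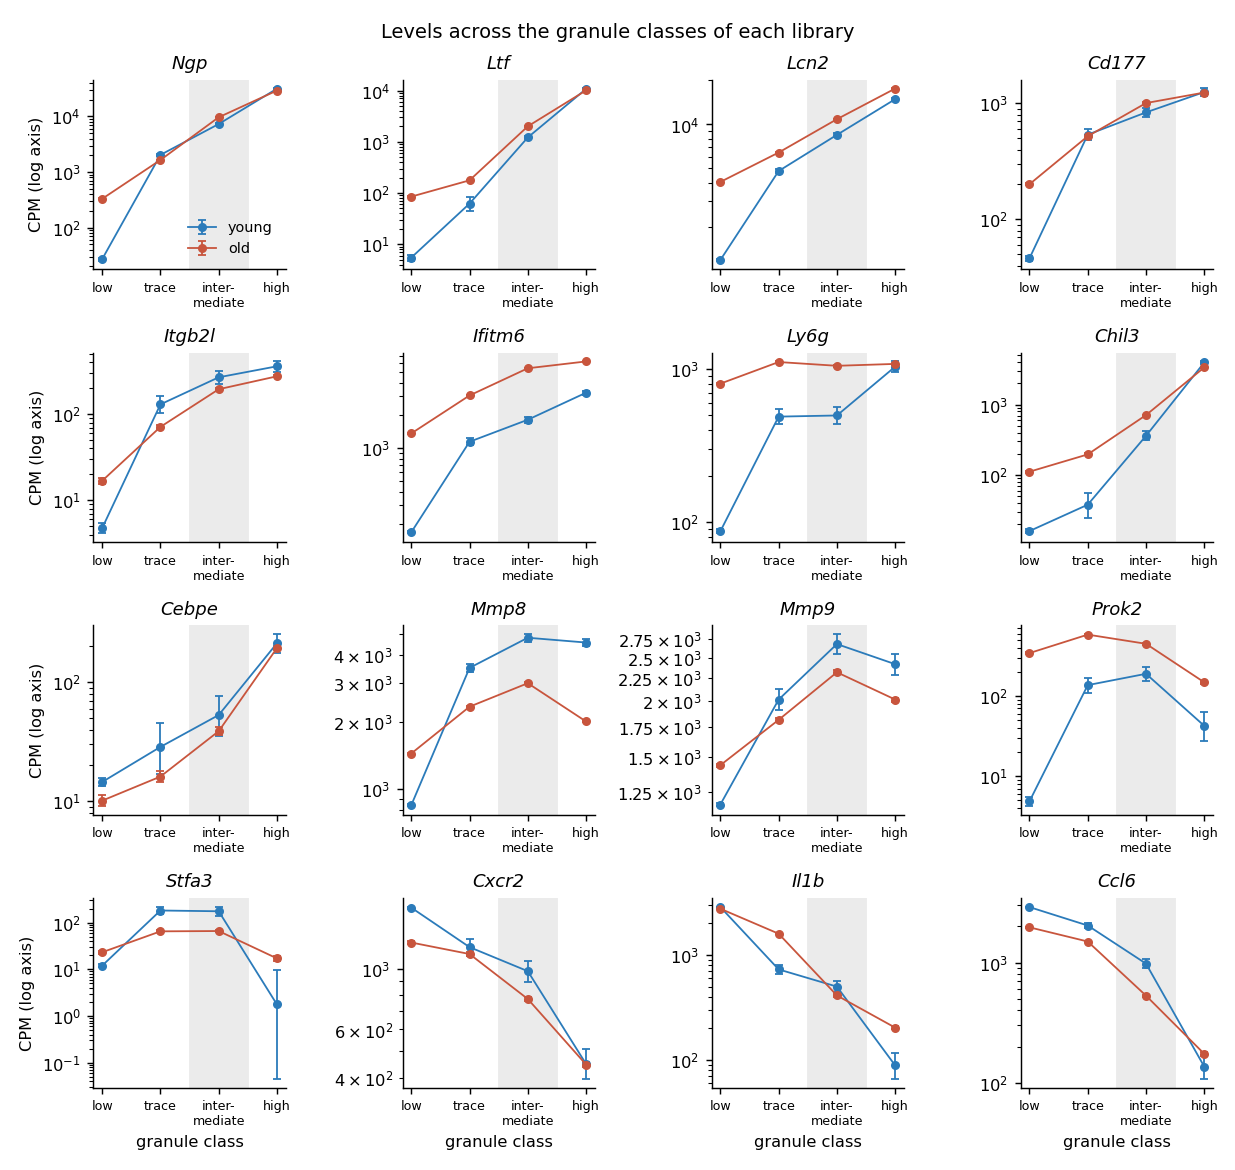
Levels (y axis, CPM, log scale) of 16 genes in the 4 granule classes of each library (x axis), with exact 95% Poisson intervals and the intermediate class in grey. Ngp and Ltf were part of the rule. Lcn2, Cd177, Itgb2l, Ifitm6, Chil3 and Cebpe were higher with each class in both libraries, and Cxcr2, Il1b and Ccl6 were lower with each class. Mmp8 and Mmp9 were highest in intermediate cells on this scale.

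To set these markers against all genes, intermediate cells were compared with trace cells in each library, and a gene was called when its log2 ratio (with 1 CPM added) passed 1.5-fold the same way in both. Of 2164 genes at 50 CPM or more, 35 were higher (1.62%) and 94 lower (4.34%). At the floor used for gene lists, 5 CPM, the shares were 1.73% and 3.60% of 6310 genes. The median gene stood at -0.08 (young) and -0.19 (old), and relative to it 65 genes were higher and 51 lower. With the total taken without S100a8, S100a9, Ltf, Camp and Ngp the counts were 84 and 67, and without cells with markers of other types 32 and 84. Specific granule genes had 6 of 15 measured members higher and 0 lower: Lcn2, Cd177, Itgb2l, Ifitm6, Chil3 and Cybb. The list was drawn up knowing that such genes follow the rule genes, so the count is a description. Of 18 genes known or proposed for immature neutrophils, 6 were higher and 0 lower: Acvrl1, Serpinb1a, Ceacam10, Gca, Anxa3 and Syne1.

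The 10 genes with the highest ratio over trace cells, the genes of the rule left out, included several outside the granule list. Abca13, a transporter of the ABCA family, stood at 65.1 CPM in trace and 232.5 CPM in intermediate cells of the young library, and at 55.1 and 167 CPM in the old. Golim4, a Golgi membrane protein, stood at 50.8 and 121 CPM young and 18.1 and 71.8 CPM old. Acvrl1, the ALK1 receptor of the TGF-beta family, stood at 34.9 and 107.7 CPM young and 81.6 and 149 CPM old. Capg, an actin-capping protein, stood at 111 and 219 CPM young and 120.4 and 284 CPM old. Old B cells had 325 CPM of Capg, so this gene is not particular to neutrophils. Serpinb1a, an inhibitor of neutrophil serine proteases, stood at 68.3 and 151 CPM young and 85.8 and 292 CPM old.

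Genes lower in intermediate than in trace cells included receptors, signalling genes and an interferon-induced gene. Ifitm1 stood at 862 CPM in trace and 410.2 CPM in intermediate cells of the young library, and at 5498 and 2278 CPM in the old. Socs3, an inhibitor of cytokine signalling, stood at 63.5 and 15.1 CPM young and 147 and 64.5 CPM old. The young Socs3 level rests on 8 UMIs. Il13ra1, a subunit of the interleukin-4 and -13 receptors, stood at 141 and 62.4 CPM young and 269 and 128 CPM old. The sialyltransferases St8sia4 and St3gal6 were lower too: St8sia4 stood at 206 and 94.5 CPM young and 226 and 80.4 CPM old. Of 22 interferon-induced genes 5 were lower and 0 higher, where 3.60% of all genes were lower. Of 20 surface genes of mature neutrophils 3 were lower and 0 higher (1 and 0 relative to the median gene), and of 15 inflammatory genes 2 were lower and 0 higher. None of 13 endoplasmic reticulum genes, 88 genes with ribosomal protein symbols or 12 mitochondrially encoded genes was called in either direction on the plain scale. The ribosomal list was taken by symbol and also holds Rps6kc1, a kinase family gene.

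Against granule-high cells the calls were more numerous. Of 2038 genes, 304 were higher in intermediate cells (14.9%) and 75 lower (3.68%). At the list floor the shares were 8.39% and 4.24% of 6296 genes. The median gene stood at 0.21 young and 0.20 old, and relative to it 159 genes were higher and 133 lower. With the total taken without the 5 abundant genes the counts were 197 and 206, so the excess of higher genes in the plain counts was absent on that scale. Without cells with markers of other types they were 281 and 77. Granule-high cells gave 6.36% (young) and 5.81% (old) of their UMIs to Ltf, Camp and Ngp, and intermediate cells 1.19% and 1.40%.

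Among the genes lower in intermediate than in granule-high cells were regulators and enzymes of earlier stages. Cebpe, the C/EBP-epsilon gene, stood at 52.9 (35.2 to 76.5) CPM in young intermediate and 212 CPM in young granule-high cells. In the old library it stood at 38.7 (35.7 to 41.9) and 193 CPM. Cebpe was also called higher than in trace cells, where it stood at 28.6 and 16.1 CPM. Chil3, a chitinase-like secreted protein (Ym1), stood at 361 and 3967 CPM young and 711 and 3373 CPM old. Cybb, the catalytic subunit of the phagocyte NADPH oxidase, stood at 616 and 2077 CPM young and 567 and 1628 CPM old. Lta4h, the enzyme that makes leukotriene B4, stood at 24.6 and 279 CPM young and 55.8 and 321 CPM old. Zmpste24, the protease that processes prelamin A, stood at 11.3 and 152 CPM young and 9.31 and 100.7 CPM old. The transcription factor Erg stood at 15.1 and 90.1 CPM young and 7.85 and 61.2 CPM old. Of 3 cell cycle genes measured in both libraries, 0 were called in either direction. In the old library alone 9 were measured, and 7 of them were lower in intermediate cells and 0 higher, with a median log2 ratio of -2.01. Against old trace cells only 4 were measured, so some members passed the list floor through their level in granule-high cells. For such members the floor favours a lower call, so the 7 of 9 is not a result about the list. Of the 2038 genes at 50 CPM or more, a higher floor, 98 were lower in that library.

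Genes higher in intermediate than in granule-high cells included surface, chemokine and cytokine genes. Of 20 surface genes of mature neutrophils 9 were higher and 0 lower, of 21 interferon-induced genes 9 and 0, of 12 immediate-early genes 6 and 0, and of 12 inflammatory genes 5 and 0, where 8.39% of all genes were higher. Relative to the median gene the higher members numbered 6, 6, 4 and 3, with 0 lower. Of 18 genes of the immature list 2 were higher (Prok2 and Ggt1) and 6 lower. Of 7 azurophil genes 2 were higher (Ctsc and Srgn) and 3 lower. Cxcr2, the receptor for neutrophil-attracting chemokines and part of the rule, stood at 981 (898 to 1069) CPM in young intermediate cells and 449 CPM in young granule-high cells. In the old library it stood at 776 (762 to 790) and 446 CPM. Il1b, interleukin-1 beta, stood at 499 and 88.3 CPM young and 411 and 203 CPM old. Ccl6, a chemokine, stood at 979 and 136 CPM young and 530.2 and 174 CPM old. Clec4d, a C-type lectin receptor, stood at 559.5 and 115 CPM young and 284 and 87.0 CPM old. Of 7 stefin genes, inhibitors of cysteine proteases, 6 were higher, but these near-identical copies can share reads and single members are uncertain. Granule-low cells had more of the same genes, for example 2868 CPM of Il1b young and 2763 CPM old, so intermediate cells lay between the classes.

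**Figure D4:**
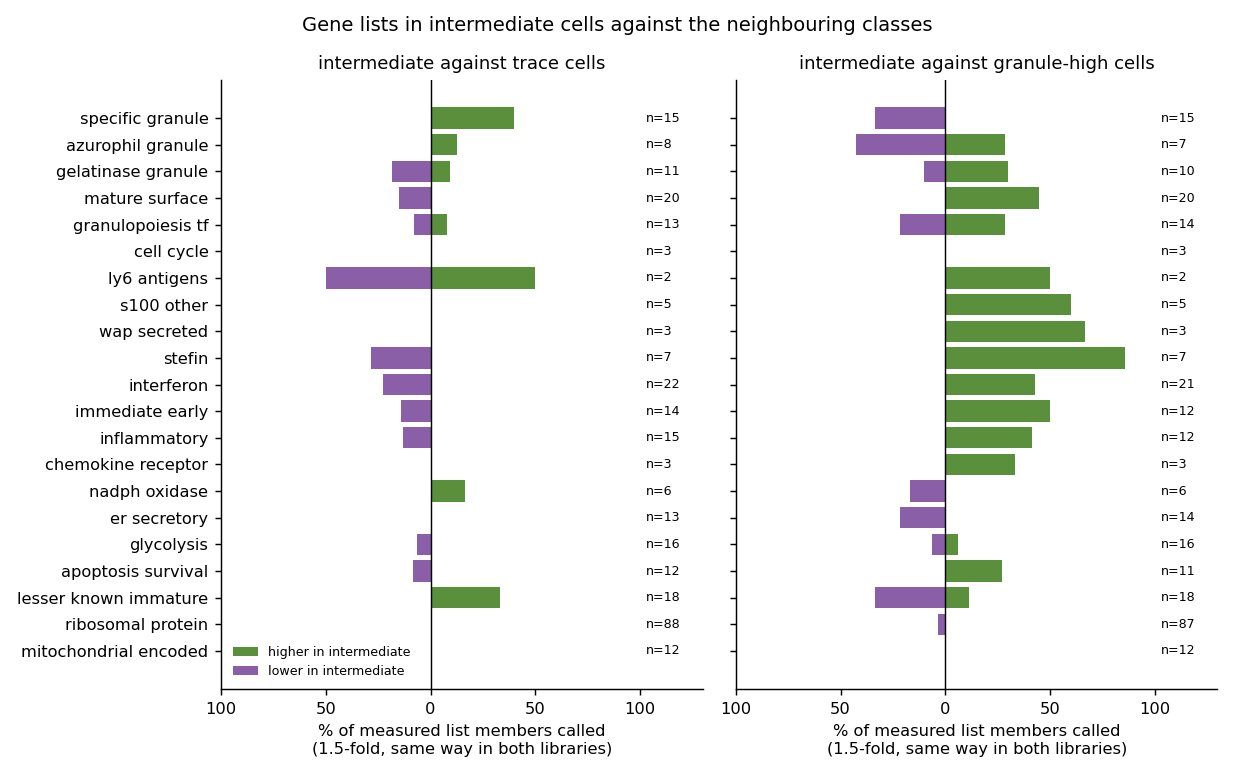
Percent of the measured members of each gene list (x axis; n at the right) called higher (green) or lower (purple) in intermediate cells, from 1.5-fold and the same way in both libraries, against trace cells (left panel) and granule-high cells (right panel). Specific granule genes were called higher than in trace cells (6 of 15) and lower than in granule-high cells (5 of 15), and mature surface, interferon and inflammatory lists the reverse way.

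The position of intermediate cells between the outer classes was taken per gene on a linear CPM scale. Of the genes that differed at least 4-fold between granule-low and granule-high cells in both libraries, 50 were higher in granule-high cells. On a scale where granule-low is 0 and granule-high is 1, their intermediate level had a median of 0.40 young and 0.41 old. The 151 genes lower in granule-high cells had a median of 0.78 in both libraries, so their levels were nearer to those of granule-high cells. The 3 rule genes, whose level the window fixes, stood at 0.19 and 0.23. These positions are of pooled means, and the members ranged widely.

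A few genes were highest in the intermediate class on the plain CPM scale. S100a8 and S100a9 took 27.7% of UMIs in young intermediate and 31.3% in young granule-high cells, and 33.4% and 36.8% in the old. Ltf, Camp and Ngp also took more in granule-high cells, so small differences from that class can depend on the total used. The order without these 5 genes in the total was not tested. Mmp8 (neutrophil collagenase) stood at 4796 (4611 to 4986) CPM in young intermediate cells, against 3508 in trace and 4562 (4388 to 4742) in granule-high cells, whose interval overlaps. In the old library it stood at 2993 (2966 to 3020) CPM, against 2346 and 2012 CPM. Mmp9 (gelatinase B) stood at 2684 (2546 to 2828) and 2321 CPM, against 2016 and 1816 CPM in trace and 2419.9 (2293 to 2552) and 2016 CPM in granule-high cells. Mmp25, a membrane-anchored metalloproteinase, stood at 393 and 279 CPM, against 249 and 178 in trace and 307 and 236 in granule-high cells. Prok2 (prokineticin 2, a chemokine-like secreted peptide) stood at 189 (154 to 229.9) CPM in young intermediate cells, against 136.5 in trace and 42.4 in granule-high cells. In the old library the trace cells were higher, at 583 CPM against 447 and 148 CPM. By a rule added after seeing the data, 2 of 2503 genes at 50 CPM or more were at least 1.5-fold above both granule-low and granule-high cells in both libraries. They were Stfa3, a stefin, and Hopx, a homeodomain-only protein. Hopx stood at 81.3 CPM young and 99.1 CPM old, against 25.4 and 35.1 in granule-low and 38.9 and 64.2 in granule-high cells. Neither was 1.5-fold above trace cells in both libraries.

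Within the window, levels differed with the granule share. Over the bins 0.5% to 1%, 1% to 2% and 2% to 3%, Chil3 stood at 164, 455 and 855 CPM young and at 524, 769 and 921 CPM old. Il1b stood at 630.5, 468 and 114 CPM young and at 559, 367 and 241 CPM old. Cxcr2 stood at 1179, 769 and 684 CPM young and at 880.4, 741 and 661 CPM old. Ly6g showed no such order, at 466, 609 and 422 CPM young and 1122, 1033 and 985 CPM old. The young bins hold 29, 14 and 8 cells. From cell to cell, Cd177 had a median of 766 CPM in young members (quartiles 542 and 1127) and 910.3 CPM in old members (583 and 1282). Il1b varied more: its quartiles were 0 and 419 CPM in the young and 43.9 and 770.1 CPM in the old members, and 17 of 51 young and 335 of 1359 old members had none.

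Old and young intermediate cells were then compared. Of 2510 genes at 50 CPM or more in either library, 167 were higher (6.65%) and 919 lower (36.6%) in old cells. At the list floor the shares were 11.5% and 32.1% of 6807 genes. The median gene stood at -0.42, and relative to it 434 genes were higher and 273 lower. With the total taken without the 5 abundant genes the counts were 310 and 865, and without cells with markers of other types 135 and 956. The split between higher and lower therefore depends on the scale, and list counts between ages are given on both. The 5 abundant genes were also part of the rule.

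Of 15 specific granule genes, 9 were within 1.5-fold between old and young intermediate cells, and 8 relative to the median gene. Of all 6807 genes at the list floor, 11.5% were higher and 32.1% lower on the plain scale. Most genes were thus within 1.5-fold too, and the count of 9 is not particular to the granule list. The window also limits how far genes that follow the granule share can differ. Cells were not matched within it: 56.9% of young and 42.2% of old members lay from 0.5% to 1%. The folds that follow are on the plain scale. Cd177 stood 1.20-fold higher in old than in young intermediate cells, while over all neutrophils of the rule it stood at 77.1 CPM young and 625 CPM old, 8.12-fold. Lcn2 stood 1.28-fold higher in intermediate cells and 5.73-fold over all neutrophils. Itgb2l had a log2 ratio of -0.46 in intermediate cells, -0.04 relative to the median gene, and 8.09-fold higher levels in old cells over all neutrophils. Prok2 stood at 189 (154 to 229.9) CPM young and 447 (437 to 458) CPM old in intermediate cells, 2.37-fold, and at 9.26 and 376 CPM over all neutrophils, 40.6-fold. Ifitm6 stood 2.97-fold higher in old intermediate cells and 14.4-fold over all neutrophils. Of 2376 genes at the floor both ways, 205 were called higher in old cells over all neutrophils. In intermediate cells 79 of them were called higher, 119 were within 1.5-fold and 7 were called lower. Of 1157 genes called lower over all neutrophils, 697 were also called lower in intermediate cells. A ratio of 4-fold or more was found for 29 of the genes over all neutrophils and for 1 of these 29 in intermediate cells. The 2 comparisons share cells, so their ratios are set side by side only.

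**Figure D5:**
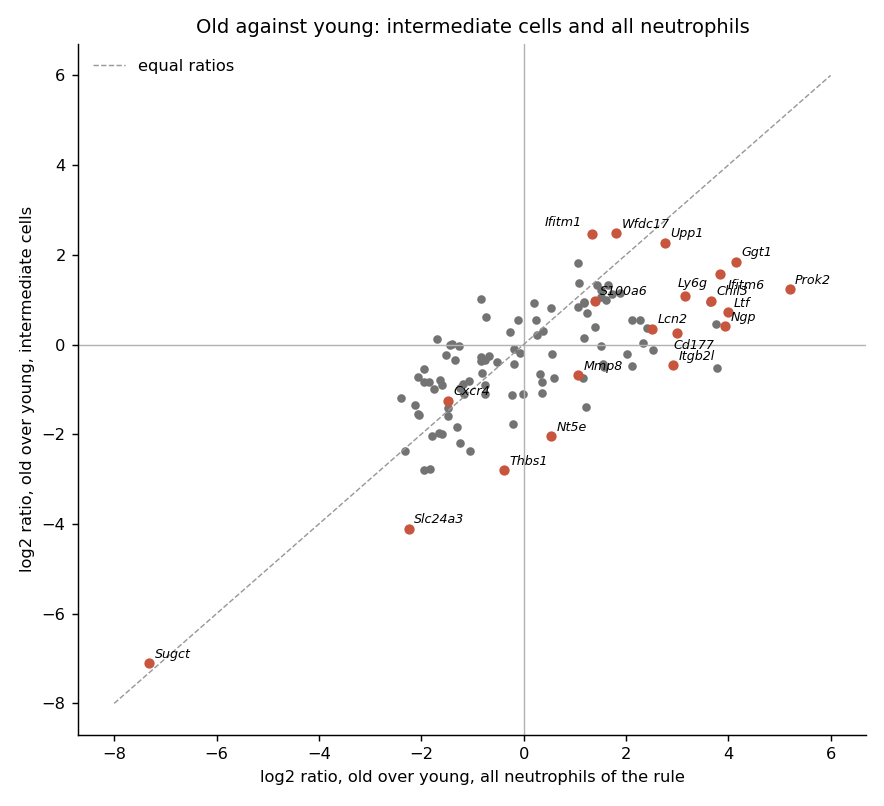
Log2 ratio of old to young levels in intermediate cells (y axis) against the same over all neutrophils of the rule (x axis), for the named genes with at least 10 UMIs in young intermediate cells. Points under the dashed line have a smaller ratio in intermediate cells, as Prok2, Cd177, Lcn2 and Itgb2l do (and the rule gene Ngp, whose level the window fixes), while Wfdc17 and Ifitm1 lie above it and Sugct near it.

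Granule lists held calls in both directions on the plain scale. Of 15 specific granule genes 4 were higher (Ifitm6, Olfm4, Chil3, Anxa1) and 2 lower (Mmp8, Orm1) in old intermediate cells, with a median of 0.06 against -0.42 over all genes. Relative to the median gene 7 were higher and 0 lower. Of 18 genes known or proposed for immature neutrophils 5 were higher and 2 lower, and 10 and 0 relative to the median gene. Chil3 stood at 361 CPM young and 711 CPM old. Olfm4, olfactomedin-4 of specific granules, stood at 49.2 and 125 CPM. Mmp8 stood at 4796 and 2993 CPM, a log2 ratio of -0.68 that is -0.26 relative to the median gene. Of 11 gelatinase granule genes 0 were higher and 2 lower, and relative to the median gene 1 was higher and 2 lower. Adam8, a membrane metalloproteinase, stood at 312 and 145 CPM.

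Genes higher in old intermediate cells included members of the S100 and glycolysis lists. Wfdc17, a secreted whey acidic protein family member, stood at 510.4 (451 to 575) CPM young and 2863 (2837 to 2890) CPM old, 5.61-fold. Old B cells had 363.5 CPM of it. Ifitm1 stood at 410.2 (357 to 469) and 2278 (2254 to 2302) CPM, 5.55-fold, with 306 CPM in old B cells. Upp1 (uridine phosphorylase) stood at 58.6 (39.8 to 83.2) and 286 (278 to 295) CPM. S100a6 stood at 8416 and 16512 CPM, and 5 of 6 S100 genes outside the rule were higher and 0 lower on both scales. The young levels of S100a4 and S100a10 rest on 8 UMIs each. Without cells with markers of other types, S100a4 had a log2 ratio of 1.03 in place of 1.92. Of 16 glycolysis genes 6 were higher and 0 lower, among them Gapdh at 1253 and 2051 CPM and Ldha at 195 and 346 CPM. Relative to the median gene 12 were higher and 0 lower. Of 12 mitochondrially encoded genes 7 were higher and 1 lower (9 and 1 relative to the median gene). Of 88 genes with ribosomal protein symbols, a list not limited to ribosomal proteins, 22 were higher and 5 lower (57 and 2 relative to the median gene). Lipg, endothelial lipase, stood at 5.67 (1.17 to 16.6) CPM young, from 3 UMIs, and 61.9 (58.1 to 66.0) CPM old.

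Several genes were far lower in old intermediate cells. Sugct (succinyl-CoA:glutarate-CoA transferase) stood at 488 (430 to 551) CPM young and 2.55 (1.82 to 3.48) CPM old, 191-fold lower. It stood at 89.6 and 5.66 CPM in young and old B cells, so the difference was not limited to neutrophils. Thbs1 (thrombospondin-1) stood at 149 and 20.6 CPM and Slc24a3, a sodium-calcium exchanger, at 77.5 and 3.57 CPM. Mgll (monoacylglycerol lipase) stood at 187 (152 to 228) and 35.3 (32.4 to 38.3) CPM. Fpr3, a formyl peptide receptor, stood at 83.2 and 11.04 CPM, and Nt5e (CD73, which makes adenosine) at 56.7 and 12.95 CPM. The young values rest on 30 to 99 UMIs except that of Sugct, on 258. All 6 were also lower relative to the median gene. Over all neutrophils Thbs1 had a log2 ratio of -0.38, and Nt5e had the opposite sign, 0.54.

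Surface, chemokine receptor and interferon genes went both ways. Cxcr4, the receptor that retains neutrophils in bone marrow, stood at 253 (212 to 300.0) CPM young and 106 (100.5 to 111) CPM old. Il1rn, the interleukin-1 receptor antagonist, stood at 136 and 44.7 CPM, and Clec4d at 559.5 and 284 CPM. Cxcr2 was within 1.5-fold, with a log2 ratio of -0.34. Cd14 was higher in old cells, at 62.4 and 121 CPM. Of 22 interferon-induced genes 5 were higher, among them Ifitm1, Ifitm2 and Ifitm3, and 8 lower, among them Rsad2, an antiviral enzyme. Relative to the median gene 7 were higher and 5 lower, so the balance turned, and the plain share lower was near the 32.1% of all genes. Rsad2 stood at 81.3 and 27.3 CPM. Of 15 inflammatory genes 1 was higher and 7 lower, with a median of -0.57 against -0.42 over all genes, and relative to the median gene 4 were higher and 5 lower. Among the regulators, Cebpb stood at 395 and 696 CPM and Zeb2 at 200.4 and 112 CPM, a direction that reversed (log2 ratio 0.42) when cells were thinned to 1000 UMIs, while Cebpe (52.9 and 38.7 CPM) had overlapping intervals.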

How the data were processed

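The members, gene lists and comparisons were chosen with earlier results of these data known. The authors deposited, per the file headers, raw UMI counts for 32285 genes in each barcode. The labels name BD Rhapsody, while the file headers name Cell Ranger 7.2.0 and barcodes have 16 bases; the sources used here do not resolve this. The submitters' processing notes name Cell Ranger and build mm10; how cells were called is not given in the sources used here. Neutrophils were classed by the percent of UMIs from Ltf, Camp and Ngp. UMIs were summed per class and library and given as CPM (numpy 2.4.6, scipy 1.17.1, pandas 2.3.3), and ratios are log2 with 1 CPM added. Genes at 50 CPM in either group were called from 1.5-fold. List members needed a mean of 5 CPM. B cells had at least 5 UMIs summed over Cd79a and other B cell genes and none of Csf3r or Cxcr2. No doublet caller was run: cells with 0.5% or more of UMIs from markers of other types were left out in an alternative. Thinning used 1000 UMIs per cell. Tested on simulated data over 2029 genes, the old against young step called 99% of 2-fold changes and 0.765% of unchanged genes. The young step against granule-high cells (2341 genes) called 91% and 5.04%, and that against trace cells (2457 genes) 95% and 3.90%. The simulated counts held Poisson counting error on pooled totals only, with no spread between cells or animals. These rates are therefore not the error rates of the comparisons in the data. Named genes were the 12 highest and 12 lowest ratios between ages, the 10 highest and 10 lowest against each class, up to 4 per list and 20 fixed genes. Not all are reported: some genes are left out here. A few further list members were chosen after their values were seen. Gene positions are from GENCODE (GRCm38) by gene identifier, matched for all 140 named genes. Libraries held 69599479 (young) and 128826996 (old) UMIs.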

Additional observations from a re-analysis of the deposited data

Results flagged for a closer look

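Between intermediate and trace cells, 3 genes passed 1.5-fold in opposite directions in the 2 libraries. Hbb-bs, a beta-globin gene, had log2 ratios of -1.38 (young) and 0.61 (old). Hbb-bt, its neighbouring beta-globin gene, had -1.02 and 0.75. Itpkb, an inositol trisphosphate kinase, had 0.59 and -0.62. The young Itpkb level rests on 96 UMIs in intermediate and 76 in trace cells. The difference between the libraries was not tested. The old intermediate cells with 0.5% or more of erythroid UMIs hold 47209 CPM of Hbb-bs and the others 712 CPM. Of the 91 young trace cells 18 passed the same limit, and Hbb-bs stood at 1403 CPM in young trace and 537 CPM in young intermediate cells. The part of such cells of either library in the globin ratios was not tested.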

How the results depend on the processing

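No paired analysis was possible because each age has 1 library. The share of intermediate cells stayed within its interval in both libraries with no barcode filter, with a stricter one or with the free RNA level subtracted. It stood at 0.869% young and 19.4% old with a lower limit of 0.25%, at 0.233% and 7.75% with 1%, and at 0.731% and 17.4% with an upper limit of 5%. Without cells with other-type markers the old share was 11.6%. Genes higher in old than young intermediate cells numbered 434 when centred on the median gene, 310 with the total without 5 abundant genes, 267 with equal weight per cell, 90 at a floor of 100 CPM and 427 when thinned. Lower genes numbered 273 when centred and 531 at the higher floor. Against trace cells, higher genes numbered 65 (centred), 84 (other total) and 58 (equal weight), and lower genes 51 (centred), 157 (equal weight) and 61 (higher floor). Against granule-high cells, higher genes numbered 159 (centred), 197 (other total) and 194 (higher floor), and lower genes 133, 206 and 42. A higher floor tests fewer genes; the cause of the other changes was not tested. When thinned, log2 ratios of old to young were reversed for Zeb2 (0.42), Sirpb1b (0.011), Tspan2 (0.43), Ptms (0.017) and H2-Q10 (1.59), which then rest on few young UMIs. Of 2721 recomputed single-gene ratios 1946 stayed within counting error, 770 moved and these 5 reversed. The 51 young cells limit every comparison between ages, and depth differs between classes and libraries.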
